A study of Homo sapiens with 6 samples.

Results

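Mitochondrial ribosomal proteins are the protein subunits of the ribosome inside mitochondria. Their transcripts were compared here between libraries titled SPIN1 and libraries titled NC, all from erastin-resistant gastric cancer cells. The cells had received a hairpin RNA, but the labels disagree on which group is the SPIN1 knockdown. The members were all rows of the deposited expression table whose gene name was MRPL or MRPS followed by a number, which gave 78 of the 11314 genes listed. That rule used gene names only, but the family was chosen with earlier results of these data known. All 78 had a mean of at least 0.5 FPKM over the libraries and entered the test of 11061 genes. FPKM is the number of sequenced fragments per kilobase of a gene, relative to all mapped fragments in its library.

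The 6 libraries were poly(A)-selected, strand-specific messenger RNA. The cells were SNU-668, a long-established line from a human gastric cancer, in a form resistant to erastin, which blocks cystine uptake and sets off ferroptosis. All were grown in DMEM with 10% FBS. The treatment text says that cells received a hairpin RNA, either shRNA-SPIN1 or shRNA-NC, without naming samples. The titles give 3 libraries for SPIN1 and 3 for NC, and erastin resistance was common to both groups. The labels disagree about which is which: under genotype, the SPIN1 titles stand as WT and the NC titles as the knockdown. The design text has ALKBH3 in place of SPIN1, and the RLS3 that starts each title is not explained. Titles decided the grouping, so SPIN1 libraries and NC libraries are named for their titles only, and "higher" and "lower" refer to the SPIN1 libraries. Separate cultures are not mentioned in any label, and p-values therefore reflect only the spread among these libraries, which may be technical.

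The mitochondrial ribosome translates the 13 proteins encoded by mitochondrial DNA, all of them core subunits of the respiratory chain or of ATP synthase. Its ribosomal RNAs are made in the organelle, but its proteins are encoded in the nucleus, translated in the cytosol, imported and assembled into a large subunit, which joins amino acids into the chain, and a small subunit, which reads the messenger RNA. Some of these proteins have relatives in every ribosome, some only in bacterial ribosomes, and some were gained by mitochondria.

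The targeted gene did not check the labels. SPIN1, which encodes the histone reader spindlin 1, was at 0.322, 6.18 and 7.97 FPKM in NC replicates 1 to 3 and at 0.324, 0.629 and 2.49 FPKM in SPIN1 replicates 1 to 3. The groups overlapped because NC replicate 1 was as low as the lowest SPIN1 library (limma, Benjamini-Hochberg adjusted p = 0.307; two-sided exact permutation p = 0.4, where the smallest p possible is 0.1). Without that library the log2 difference was -2.03 (limma adjusted p = 0.0301). ALKBH3, a demethylase of alkylated nucleic acids, was at 10.8 to 14.8 FPKM in the NC libraries and 7.40 to 12.5 FPKM in the SPIN1 libraries (limma adjusted p = 0.381). Of 6 epithelial markers, 3 were in the table, with KRT18 at 65.1 to 149 FPKM, KRT8 at 24.5 to 90.3 FPKM and EPCAM at 0.313 to 1.44 FPKM; KRT18 and KRT8 were called higher. TFF1 was the 1 gastric marker listed, at 0.515 to 2.33 FPKM. Of 8 markers of other cell types, CD68 and COL3A1 were listed, at 78.8 to 156 and 166 to 249 FPKM. The remaining markers were not analysed here. The summed FPKM of a library was 269383 to 286866, and sequencing depth could not be recovered.

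The sequences in front of the members' start sites are described first, since the family shares a role and its promoters can be set side by side. RefSeq's table for GRCh38.p14, a different build from the hg19 of the expression table, gave a window of 250 bases before and 50 bases after the start for 69 of the 78 members. MRPL35, MRPL21, MRPS28, MRPL13, MRPL15, MRPL2, MRPL23, MRPS36 and MRPL10 were not matched. Each window was searched on both strands for 5 short motifs of factors known to act on genes of this kind or on S phase genes: NRF1, ETS factors such as GABP (CCGGAAG), the E-box of MYC (CACGTG), E2F (TTTCCCGC) and YY1 (AAGATGGCG). No hits of different motifs overlapped each other. The ETS motif was in 29 windows of members (42%), against 20.9% of the 8678 matched genes tested and 10.7% of all 27305 windows. YY1's motif was in 13 (18.8%), against 4.45% and 1.85%. NRF1's was in 8 (11.6%), against 12.6% and 6.28%. The E-box was in 6 (8.7%), against 10.6% and 7.43%, and the E2F motif in 1 (1.45%), against 2.78% and 1.66%.

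The motifs were spread over members past and not past the test. Among the 15 matched members called higher, 40% held the ETS motif, 13.3% the YY1 motif and 13.3% the NRF1 motif. Among the 54 not past the threshold these shares were 42.6%, 20.4% and 11.1%. A match is a description of letters, not of a bound site, and no test was made of it. The 250 bases before the start of 4 members called higher are printed below in the direction of transcription, with NRF1, ETS or YY1 motifs in capitals. They were chosen after the values were seen, from among those that hold such a motif. Other members called higher, such as MRPL47, hold one too. MRPL17 (GRCh38 chr11:6683341-6683590, minus strand) and MRPL14 (chr6:44127309-44127558, minus strand) each hold an NRF1 motif, starting 81 and 123 bases before the start. MRPS34 (chr16:1773135-1773384, minus strand) holds the ETS motif 71, 29 and 19 bases before it. MRPL52 (chr14:22829637-22829886, plus strand) holds YY1 motifs 98 and 64 bases before the start and an ETS motif at 5 bases, of which the last letters lie beyond the printed end.
MRPL17: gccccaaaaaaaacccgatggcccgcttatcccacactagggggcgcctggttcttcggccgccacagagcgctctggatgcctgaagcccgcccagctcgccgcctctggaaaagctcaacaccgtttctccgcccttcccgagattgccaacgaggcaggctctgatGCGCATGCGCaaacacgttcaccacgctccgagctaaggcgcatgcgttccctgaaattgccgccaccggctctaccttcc
MRPL14: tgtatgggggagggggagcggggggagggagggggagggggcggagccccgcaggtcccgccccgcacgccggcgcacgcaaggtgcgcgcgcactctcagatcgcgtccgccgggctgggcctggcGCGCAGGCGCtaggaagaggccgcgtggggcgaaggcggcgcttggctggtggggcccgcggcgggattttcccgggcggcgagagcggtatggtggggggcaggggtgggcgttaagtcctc
MRPS34: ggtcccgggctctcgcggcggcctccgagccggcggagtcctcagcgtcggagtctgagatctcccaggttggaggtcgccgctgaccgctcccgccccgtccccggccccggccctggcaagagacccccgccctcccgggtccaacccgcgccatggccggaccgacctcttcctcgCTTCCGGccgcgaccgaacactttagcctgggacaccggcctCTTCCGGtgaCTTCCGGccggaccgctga
MRPL52: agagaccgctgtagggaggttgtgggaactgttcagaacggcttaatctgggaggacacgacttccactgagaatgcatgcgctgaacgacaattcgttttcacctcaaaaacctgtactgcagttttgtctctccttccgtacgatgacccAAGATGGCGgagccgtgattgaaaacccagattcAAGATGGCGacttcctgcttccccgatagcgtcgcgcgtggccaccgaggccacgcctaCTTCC

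Of 78 mitochondrial ribosomal protein transcripts, limma called 20 higher (25.6%) and 0 lower in the SPIN1 libraries at an adjusted p under 0.05, and the other 58 did not pass. Over all 11061 genes tested, 17.3% were called higher and 10.3% lower. At an unadjusted p under 0.05, 35 members were higher and 1, MRPS18B, was lower. No share of all genes is given at that threshold, here or for the lists below, so unadjusted counts have no baseline. The difference of log2(FPKM + 1) was above 0 in 62 members (79.5%), compared with 54.9% of all genes, and its median was 0.23, compared with 0.05. Means are given ± SD over the 3 libraries of a group, and differences with the standard error (SE) of the fit. Where values are set against each other, NC libraries come first, in the order of replicates 1 to 3. The difference ran from -0.60 in MRPL10 to 1.00 in MRPL17. By group means, 39 members were at least 1.2-fold higher, 11 at least 1.5-fold higher and 4 at least 1.2-fold lower (MRPL10, MRPS31, MRPS27 and MRPL30). Shares of all genes at these folds are not given. The folds of MRPL10, MRPL30 and MRPL49 rested largely on a single library, as described below, and the log2 difference of MRPL30 was 0.02. All 3 libraries titled SPIN1 lay above all 3 titled NC in 41 members (52.6%), against 27.2% of all genes. They lay below in 4 members (MRPL10, MRPS18B, MRPS30 and MRPL4), where the share of all genes was 18.8%, and the groups overlapped in 33. All 20 members called higher were among the 41.

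The count of calls depended on single libraries. Without NC replicate 2 only MRPL17, MRPL35, MRPL14 and MRPS34 were called higher, 5.13% of members against 10.2% of genes. Without SPIN1 replicate 3 the call was kept by 8 members, or 10.3% against 12.4% of genes; besides those 4 they were MRPL39, MRPL32, MRPL13 and MRPS28. There were 13 calls without NC replicate 1 (16.7% of members against 13% of genes) and 11 without NC replicate 3 (14.1% against 11.5%). Leaving out SPIN1 replicate 1 or SPIN1 replicate 2 gave 14 calls each, or 17.9% of members, against 18.5% and 11.4% of genes. The members' median difference, by contrast, stayed between 0.20 and 0.26 in these 6 fits.

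Genes of DNA replication separated the same libraries more widely. All 12 S phase markers were called higher, with a median log2 difference of 2.40, and their summed level was 145 to 172 FPKM in the NC libraries and 610 to 721 FPKM in the SPIN1 libraries. GINS2, a subunit of the replicative helicase, had a mean of 1.16 ± 0.109 FPKM in the NC libraries and 23.9 ± 1.17 in the others (SD, n = 3 each; limma adjusted p = 6e-05). The part of this difference in the members' result was not tested. In bulk RNA from a culture, a change in the number of cells in a given state cannot be told apart from a change in RNA per cell.

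**Figure D1:**
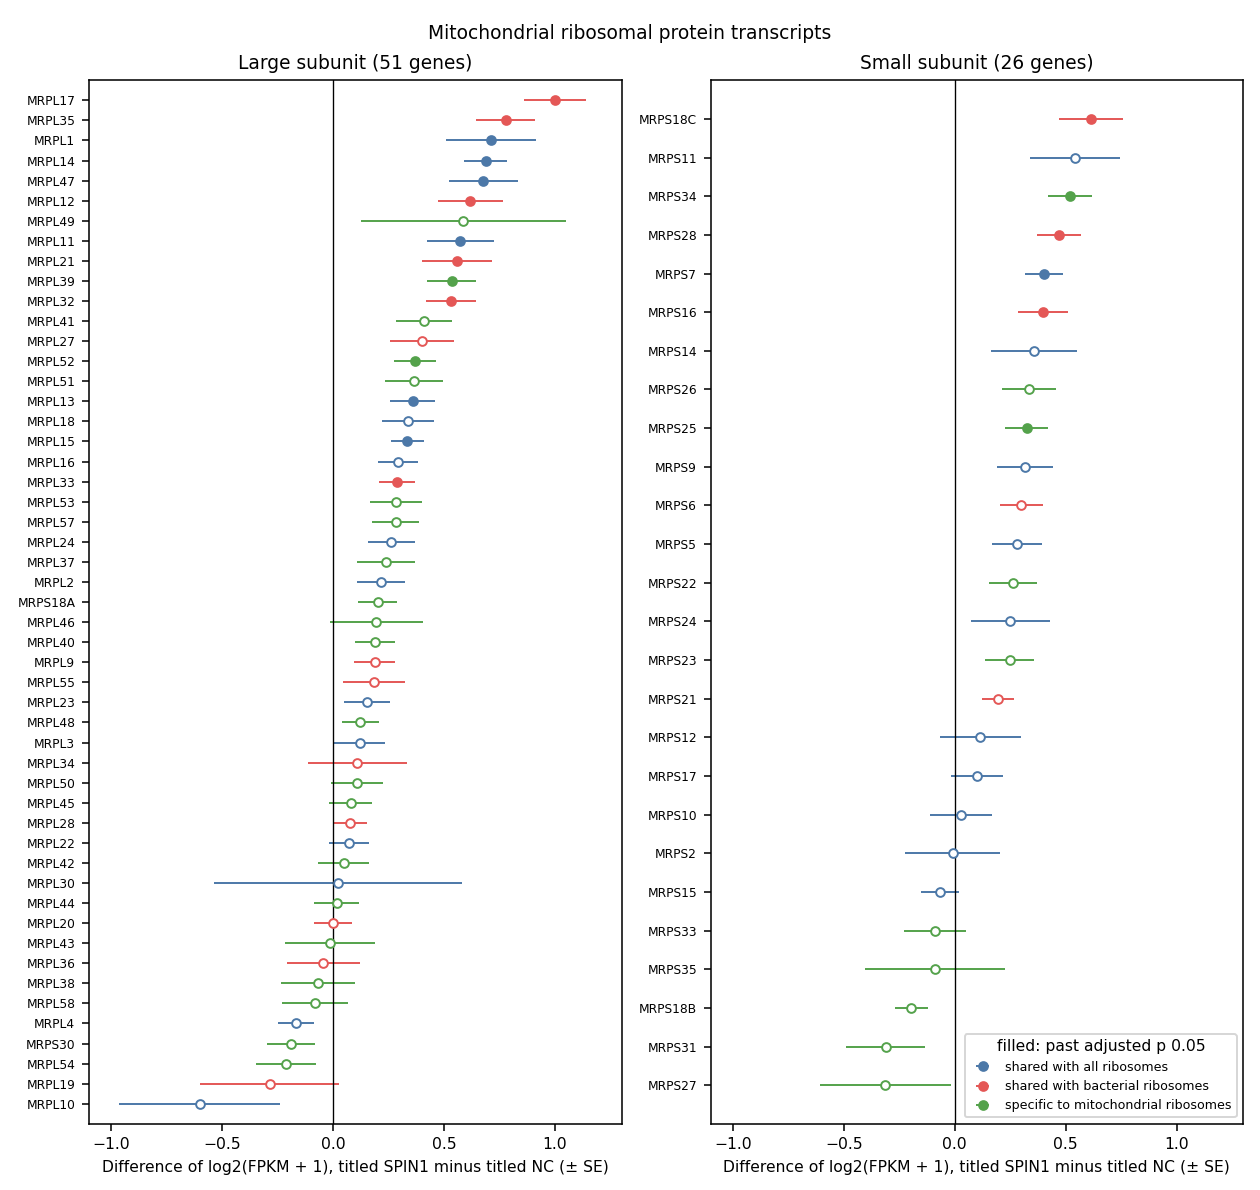
Difference of log2(FPKM + 1), titled SPIN1 minus titled NC, for the 51 members of the large subunit and the 26 of the small subunit; lines are ± the standard error of limma's fit, colours give the family class, and filled points passed the adjusted threshold of 0.05. MRPS36, at 0.02, is left out because it is not a ribosomal protein. Filled points lie between 0.29 and 1.00, and none lies below 0.

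In the large subunit, 14 of 51 members were called higher (27.5%, against 17.3% of all genes) and 42 differences were above 0 (82.4%, against 54.9%), with a median of 0.20. Proteins of the stalk that recruits translation factors had differences of both signs. MRPL12, which forms the mobile arms of the stalk (hg19 chromosome 17, 79670387 to 79674556, plus strand), was the most abundant member. It was at 159, 133 and 123 FPKM in NC replicates 1 to 3 and at 253, 185 and 202 FPKM in SPIN1 replicates 1 to 3. The lowest SPIN1 library lay above the highest NC library, and the mean was 1.54-fold higher (log2 difference 0.62, SE 0.15, limma adjusted p = 0.0231). The call was lost without SPIN1 replicate 3, NC replicate 2 or NC replicate 3, at adjusted p up to 0.0750. MRPL12 shares part of its locus and strand with a gene listed as AC139530.2, which was at 1.3 FPKM or less, so the split of their reads is uncertain.

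MRPL11, a protein of the stalk base (chromosome 11, 66202546 to 66234209, minus strand), was at 8.34, 5.98 and 7.26 FPKM in the NC libraries. Its levels under the SPIN1 title were 12.9, 9.83 and 10.8 FPKM. The groups did not overlap, with means of 7.19 ± 1.18 and 11.2 ± 1.57 FPKM (log2 difference 0.57, SE 0.15, limma adjusted p = 0.0311). It lost the call without SPIN1 replicate 1 or 3 or NC replicate 2 or 3, and under median or quantile scaling, where the adjusted p was 0.05003 and 0.0506.

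MRPL10, the protein that anchors MRPL12 to the ribosome, had the lowest difference of all members and did not pass. It was at 28.7, 26.5 and 29.7 FPKM in the NC libraries and at 9.35, 24.8 and 25.9 FPKM in the SPIN1 libraries. The 3 SPIN1 values all lay below the NC values, but SPIN1 replicate 1 alone stood far below the rest (log2 difference -0.60, SE 0.36, limma adjusted p = 0.267). Without that library the difference was -0.15.

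The largest increase was in MRPL17, a relative of the bacterial protein L17 (ENSG00000158042.8_2, chromosome 11, 6702013 to 6704632, minus strand). Its FPKM was 6.98, 7.78 and 5.76 in NC replicates 1 to 3 and 16.0, 12.7 and 15.3 in SPIN1 replicates 1 to 3. Every SPIN1 value was far above every NC value, and the mean was 2.15-fold higher (log2 difference 1.00, SE 0.14, limma adjusted p = 0.00373). MRPL17 was the 1 member called with a log2 difference of at least 1, and it held its call under all 17 alternatives that keep the threshold, as did MRPL35, MRPL14 and MRPS34.

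MRPL35, at chromosome 2, 86426478 to 86440917 (plus strand), also has bacterial relatives. Its levels were 11.4, 9.27 and 10.6 FPKM in the NC libraries and 16.3, 18.1 and 21.5 FPKM in the SPIN1 libraries. The groups did not overlap (1.79-fold, log2 difference 0.78, SE 0.13, limma adjusted p = 0.00722). Reads of MRPL35 may be shared with 4 annotated pseudogenes. MRPL14, which lies at the interface of the subunits and binds the assembly factor MALSU1 (chromosome 6, 44081191 to 44095194, minus strand), was at 38.8, 32.5 and 38.3 FPKM against 57.4, 58.9 and 61.5 FPKM. Its SPIN1 values were close together, with group means of 36.5 ± 3.52 and 59.3 ± 2.08 FPKM (SD, n = 3 each; log2 difference 0.69, SE 0.10, limma adjusted p = 0.00390).

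MRPL1 (chromosome 4, 78783674 to 78873944, plus strand) belongs to the L1 stalk, which helps the outgoing transfer RNA leave. It was at 6.78, 7.17 and 10.5 FPKM under the NC title and at 14.2, 10.9 and 16.6 FPKM under the SPIN1 title. NC replicate 3 and SPIN1 replicate 2 nearly met, and the call was close to the threshold (log2 difference 0.71, SE 0.20, limma adjusted p = 0.0418). It was lost without SPIN1 replicate 1 or 3 or NC replicate 1 or 2, at adjusted p of 0.0920 to 0.124. MRPL47, the relative of bacterial L29 beside the exit of the protein tunnel (chromosome 3, 179306073 to 179322442, minus strand), was at 10.1, 11.7 and 14.0 FPKM against 17.7, 18.2 and 23.3 FPKM. Replicate 3 was the highest of each group for both genes (MRPL47 log2 difference 0.68, SE 0.15, limma adjusted p = 0.0199). MRPL47 lost its call without SPIN1 replicate 3 or NC replicate 1 or 2, at adjusted p of 0.0509 to 0.0664.

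The remaining 7 large subunit members called higher were MRPL21, MRPL39, MRPL32, MRPL52, MRPL13, MRPL15 and MRPL33, with folds of 1.23 to 1.52. MRPL15, in the core of the subunit (chromosome 8, 55047770 to 55060461, plus strand), had small but even differences. Levels were 61.8, 63.7 and 67.1 FPKM in the NC libraries and 80.2, 80.4 and 82.8 FPKM in the SPIN1 libraries (1.26-fold, log2 difference 0.33, SE 0.07, limma adjusted p = 0.0181). MRPL15 lost its call without SPIN1 replicate 2 or 3 or NC replicate 2, at adjusted p up to 0.0800. MRPL32, which is cut by the m-AAA protease before it joins the ribosome, had means of 14.6 ± 1.45 and 21.5 ± 1.93 FPKM (log2 difference 0.53, SE 0.11, limma adjusted p = 0.0148). Without NC replicate 2 its adjusted p was 0.0636, and that of MRPL39, a mitochondria-specific protein, moved from 0.0148 to 0.0632. MRPL21 and MRPL13 stayed past the threshold in 1 of the 6 fits that left a library out, and MRPL52 in 2. MRPL32 overlaps PSMA2, a proteasome subunit on the opposite strand that was also called higher, at 11.5 against 19.5 FPKM. MRPL33 overlaps BABAM2 on its own strand, which was called lower at 17.7 against 12.2 FPKM. MRPL33's own call was lost in each of the 6 fits that left a library out, and its level is uncertain because how overlapping reads were split was not stated in any label or header.

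**Figure D2:**
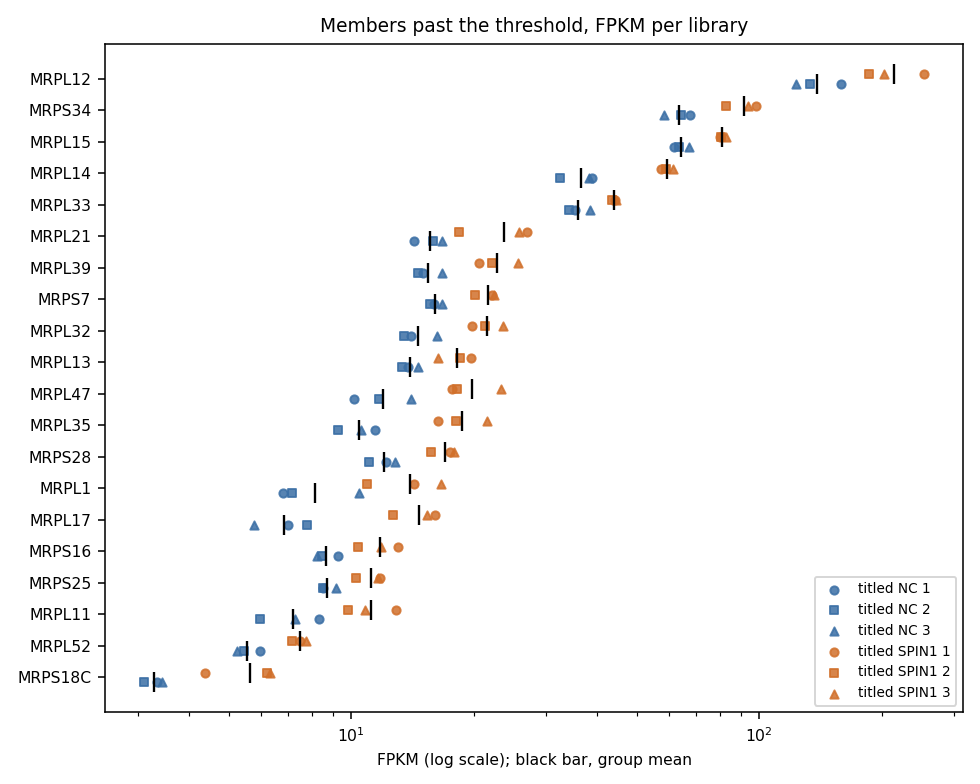
FPKM (log scale) in each of the 6 libraries for the 20 members called higher, ordered by mean level; blue symbols are libraries titled NC, orange symbols those titled SPIN1, the symbol shape is the replicate number and black bars are group means. In all 20 genes every orange symbol lies to the right of every blue one, and the levels span MRPS18C, at 3.29 and 5.63 FPKM on average, to MRPL12, at 138 and 214 FPKM.

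MRPL58 is a peptidyl-tRNA hydrolase built into the ribosome that frees stalled chains. It was at 48.3, 58.5 and 63.7 FPKM against 46.8, 63.0 and 51.6 FPKM, and the groups overlapped widely (log2 difference -0.08, SE 0.15, limma adjusted p = 0.723). MRPL45, which ties the tunnel exit to the inner membrane, was at 32.7, 35.7 and 39.0 FPKM against 39.1, 35.4 and 38.9 FPKM (log2 difference 0.08, SE 0.10, limma adjusted p = 0.586). MRPL44, a protein with an RNase III fold, was at 25.3 to 27.0 FPKM against 23.9 to 29.7 FPKM (log2 difference 0.02, SE 0.10, limma adjusted p = 0.918). For MRPL36, one of the smallest proteins of the ribosome, the ranges were 16.2 to 24.3 and 18.9 to 22.1 FPKM (log2 difference -0.04, SE 0.17, limma adjusted p = 0.869). MRPL42, the least abundant member, was at 1.10, 1.35 and 1.39 FPKM against 1.19, 1.25 and 1.64 FPKM (log2 difference 0.05, SE 0.11, limma adjusted p = 0.786). These differences took either sign when single libraries were left out, except that of MRPL45, and a p above the threshold does not show that the levels were equal.

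In the small subunit, 6 of 26 members were called higher (23.1%, against 17.3% of all genes) and 19 differences were above 0 (73.1%, against 54.9%), with a median of 0.26. MRPS34, a mitochondria-specific protein whose loss destabilises the small subunit (ENSG00000074071.14_3, chromosome 16, 1821891 to 1823156, minus strand), was the third most abundant member. Its levels were 67.6, 64.3 and 58.4 FPKM in NC replicates 1 to 3 and 98.3, 82.8 and 93.6 FPKM in SPIN1 replicates 1 to 3. The groups were well apart, at 63.5 ± 4.67 and 91.5 ± 7.92 FPKM (1.44-fold, log2 difference 0.52, SE 0.10, limma adjusted p = 0.0110). The call held without each library in turn, at an adjusted p of at most 0.0428. MRPS26, the second most abundant member, was at 90.4, 76.8 and 76.3 FPKM against 118, 93.5 and 96.7 FPKM. Its groups did not overlap either, but replicate 1 was high in both and the difference did not pass (0.33, SE 0.12, limma adjusted p = 0.0862). It did pass with both libraries numbered 1 left out (limma adjusted p = 0.0311) and with library weights (limma adjusted p = 0.0196).

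The other members of the small subunit called higher besides MRPS18C were MRPS28, MRPS7, MRPS16 and MRPS25. MRPS28, the mitochondrial relative of bacterial S1, had means of 12 ± 0.863 and 17.0 ± 1.17 FPKM (SD, n = 3 each; limma adjusted p = 0.0153). MRPS7, in the head of the subunit, had means of 16.1 ± 0.547 and 21.6 ± 1.25 FPKM (limma adjusted p = 0.0166), and both genes lost the call without NC replicate 2, MRPS7 also without SPIN1 replicate 3. MRPS16 stood at 8.66 ± 0.529 and 11.8 ± 1.32 FPKM (limma adjusted p = 0.0393). It overlaps DNAJC9, a histone chaperone gene on the same strand that was called higher, at 4.40 against 8.06 FPKM, so its reads are uncertain, and it stayed past the threshold in 1 of the 6 fits that left a library out. MRPS25 was the closest call, at 8.73 ± 0.364 and 11.2 ± 0.818 FPKM with a limma adjusted p of 0.0468, and kept it in none of those fits.

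MRPS12, which monitors decoding, was at 39.6, 27.6 and 27.3 FPKM in the NC libraries and at 40.1, 29.2 and 32.5 FPKM in the SPIN1 libraries (log2 difference 0.12, SE 0.18, limma adjusted p = 0.676). Replicate 1 was the highest library of both groups. MRPS2, at the back of the small subunit, was at 28.4, 24 and 38.3 FPKM against 37.8, 24.8 and 27.3 FPKM, with no separation (log2 difference -0.01, SE 0.22, limma adjusted p = 0.978). MRPS33, a mitochondria-specific protein and the second least abundant member, was at 3.14 to 3.44 FPKM against 2.30 to 3.39 FPKM (limma adjusted p = 0.678).

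The 3 MRPS18 paralogs, which are related to bacterial S18, had differences of both signs, and 1 was called. MRPS18C (chromosome 4, 84377085 to 84390888, plus strand), a small subunit protein, was called higher. It was at 3.34, 3.10 and 3.43 FPKM in the NC libraries and at 4.37, 6.20 and 6.32 FPKM in the SPIN1 libraries (1.71-fold, log2 difference 0.61, SE 0.15, limma adjusted p = 0.0225). The NC values were close together while SPIN1 replicate 1 lay below the other SPIN1 libraries, and the call was kept only when that library was left out, with adjusted p of 0.0579 to 0.0796 in the other 5 such fits. MRPS18A, which sits in the large subunit, was at 31.9, 30.1 and 30.8 FPKM against 34.3, 34.0 and 38.9 FPKM. Its groups did not overlap and its difference was 0.20 (SE 0.09, limma adjusted p = 0.142). MRPS18B, in the small subunit, was at 63.9, 60.5 and 61.4 FPKM against 53.7, 53.6 and 54.7 FPKM. All its SPIN1 values lay below the NC values, with a difference of -0.19 (SE 0.07) that did not pass (limma adjusted p = 0.0913). When FPKM was scaled to the sum of nuclear genes, to the median or by quantiles, MRPS18B was called lower, at adjusted p of 0.0484, 0.0472 and 0.0361. The differences between the 3 paralogs were not themselves tested.

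MRPS36 carries a ribosomal name but is known as a component of the 2-oxoglutarate dehydrogenase complex of the citric acid cycle. It was at 4.08, 5.53 and 3.85 FPKM in the NC libraries and at 3.29, 4.56 and 6.05 FPKM in the SPIN1 libraries, with overlapping groups (log2 difference 0.02, SE 0.21, limma adjusted p = 0.951).

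Grouped by family, 9 of the 19 members with relatives only in bacterial ribosomes were called higher (47.4%), with a median difference of 0.30. These were MRPL17, MRPL35, MRPL12, MRPS18C, MRPL21, MRPL32, MRPS28, MRPS16 and MRPL33. Of the 27 shared with all ribosomes, 7 were called (25.9%), with a median of 0.26. Of the 31 specific to mitochondrial ribosomes, 4 were called (12.9%), with a median of 0.19, and these were MRPL39, MRPS34, MRPL52 and MRPS25. The share of all genes called higher was 17.3%. In the same order, the groups of libraries did not overlap, with SPIN1 above, in 68.4%, 48.1% and 48.4% of members, against 27.2% of all genes. Calls of each class moved with the fit. MRPL21, MRPS16 and MRPL33 of the first class, MRPL13 of the second and MRPS25 of the third were called under 0 of the 3 scalings. Without NC replicate 2, the calls left were MRPL17 and MRPL35, MRPL14, and MRPS34, in the same order of classes. Of the MRPS18 paralogs, MRPS18C was placed in the first class and MRPS18A in the third, although both are related to bacterial S18. The difference between the classes was not tested.

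The members differed in level far more than between the groups. Mean FPKM ran from 1.32 in MRPL42 to 176 in MRPL12 with a median of 18, compared per length as FPKM does. Level and difference showed almost no correlation across the 78 members (Pearson's r = 0.01 between the log2 mean FPKM and the log2 difference, across genes that share the same libraries). Together the members made up 1844, 1750 and 1812 FPKM in NC replicates 1 to 3, or 0.669%, 0.610% and 0.668% of all FPKM. In SPIN1 replicates 1 to 3 they made up 2199, 2033 and 2174 FPKM, or 0.786%, 0.726% and 0.807%. Each SPIN1 library thus held a larger summed level and share than any NC library.

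Replicates of the libraries titled NC were closer together. The coefficient of variation of a member had a median of 8.28% over the 3 NC libraries, with 2 members over 30%, and of 11.1% over the 3 SPIN1 libraries, with 6 over 30%. SPIN1 replicate 3 held the highest SPIN1 value in 40 members and SPIN1 replicate 2 the lowest in 37. Among the NC libraries, replicate 3 was highest in 39 and replicate 1 lowest in 32. A member's mean deviation from its mean over all libraries was -0.12, -0.13 and -0.07 in NC replicates 1 to 3 and 0.10, 0.06 and 0.17 in SPIN1 replicates 1 to 3, on the log2(FPKM + 1) scale. Over all 11061 genes tested it was -0.051, -0.044 and -0.014 in NC replicates 1 to 3. In SPIN1 replicates 1 to 3 it was 0.015, 0.024 and 0.069, so each library had the same sign over all genes as over members. How often each library was highest or lowest over all genes is not given.

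Single libraries stood apart in a few members, named here after their values were seen. MRPL30 was at 2.39 and 2.79 FPKM in NC replicates 1 and 2 but 13.5 FPKM in NC replicate 3, against 3.67, 4.73 and 6.31 FPKM in the SPIN1 libraries. Without NC replicate 3 its log2 difference moved from 0.02 to 0.69. MRPL49 was at 4.41 to 7.13 FPKM in the NC libraries and at 5.61, 6.39 and 20.9 FPKM in the SPIN1 libraries. Its difference of 0.59 was 0.04 without SPIN1 replicate 3. MRPL30 overlaps AC079447.1 on the same strand, and MRPL49 overlaps FAU and SYVN1 on the other strand. In all, 33 of the 78 members overlapped another listed gene, 11 of them on the same strand, and 34 had at least 1 named pseudogene in the GENCODE annotation, with up to 8 for MRPS21, so the values of these members may hold reads of other loci. The 78 loci lay on 21 chromosomes.

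**Figure D3:**
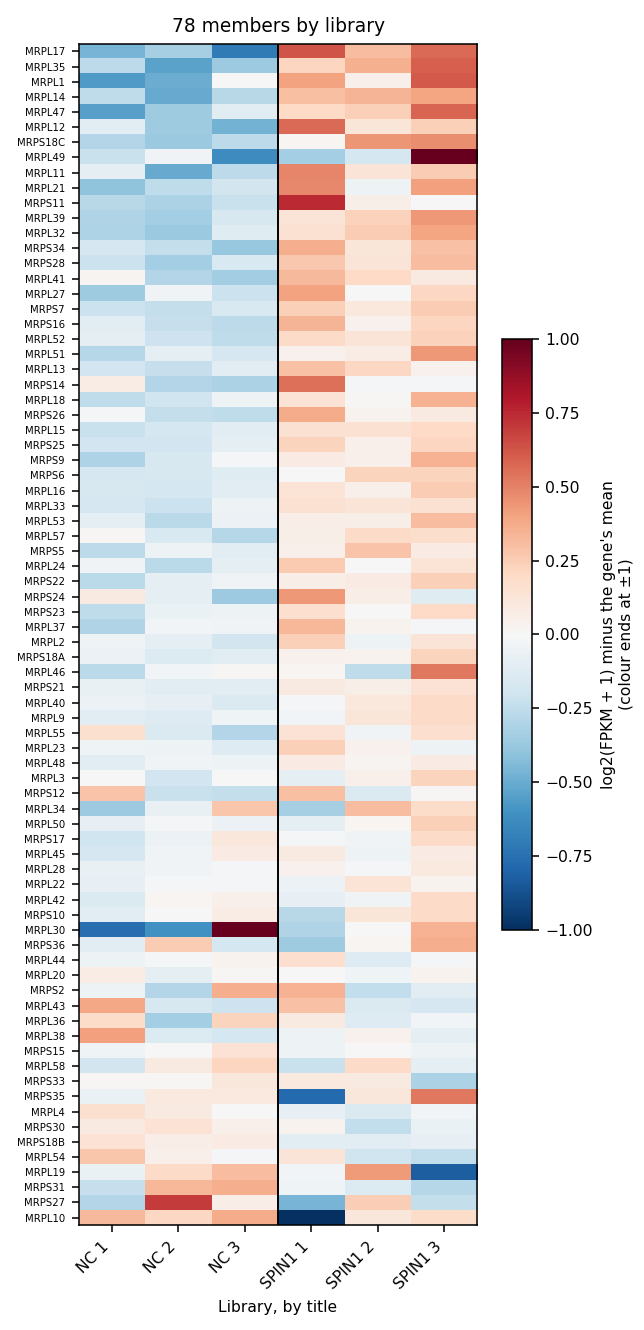
Level of each of the 78 members in each library as log2(FPKM + 1) minus the gene's mean over the 6 libraries, ordered by the difference between the groups; blue is below the mean, red above, and the colour ends at ±1. In 32 rows all 3 NC cells are blue and all 3 SPIN1 cells red. Blue cells number 61, 63 and 55 in NC replicates 1 to 3, and red cells 56, 52 and 59 in SPIN1 replicates 1 to 3. Such counts over all genes are not given. The mean deviation over all genes was also below 0 in each NC library and above 0 in each SPIN1 library. Single dark cells mark MRPL30 in NC replicate 3, MRPL49 in SPIN1 replicate 3 and MRPL10 in SPIN1 replicate 1.

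Other genes of the mitochondrial translation system were compared in lists written with earlier results of these data known. All 5 proteins of the mitochondrial ribosome that carry no MRP number had differences above 0, with a median of 0.24, but none passed, with CHCHD1 closest (0.30, limma adjusted p = 0.0661) and PTCD3 next (0.24, limma adjusted p = 0.107). At an unadjusted p under 0.05, 2 of the 5 were higher. With library weights 1 was called higher, where 28.1% of all genes were. Of 16 translation factors of the organelle, 0 were called higher and 1 lower (6.25%, against 10.3% of all genes), with a list median of 0.03. The 1 called lower was the ribosome recycling factor MRRF (7.56 ± 0.329 against 5.22 ± 0.406 FPKM, limma adjusted p = 0.0157). At an unadjusted p under 0.05 these counts were 1 and 2, and MRRF was not called without NC replicate 2 (limma adjusted p = 0.0677) or NC replicate 3 (limma adjusted p = 0.0625). Of 28 assembly and ribosomal RNA modification factors, 5 were called higher (17.9%) and 3 lower (10.7%), against 17.3% and 10.3% of all genes, with a median of -0.02. Among them NGRN, needed for the large ribosomal RNA, was lower at 19.0 against 11 FPKM, and DDX28, an assembly helicase, was lower at 19.6 against 13.8 FPKM. METTL17, an assembly factor of the small subunit, was higher at 4.40 against 6.07 FPKM, and RCC1L, a further assembly factor, at 12.5 against 16.1 FPKM.

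Of 18 genes of mitochondrial transcription and RNA processing, 4 were called higher (22.2%) and 2 lower (11.1%), with a median of 0.13. The shares of all genes were 17.3% and 10.3%. ELAC2, which trims the 3′ ends of transfer RNAs, was 1.59-fold higher, and SLIRP, which stabilises mitochondrial messenger RNAs, was 1.46-fold higher. TWNK, the helicase of mitochondrial DNA, and SUPV3L1, the helicase of RNA decay, were 1.35-fold and 1.33-fold lower. Of 22 aminoacyl-tRNA synthetases that serve mitochondria, 2 were called in each direction (9.09% each, against 17.3% higher and 10.3% lower over all genes). YARS2 and LARS2 were higher, and NARS2 and GARS, which also serves the cytosol, were lower. Of these 4, GARS differed most, at 36.2 ± 5.24 against 15.8 ± 2.11 FPKM (limma adjusted p = 0.00256). Of 12 regulators of mitochondrial gene expression, none was called, and the median was -0.23. At an unadjusted p under 0.05, 2 were higher and 2 lower, and the 3 scalings gave 0 higher and 1 or 2 lower. Over all genes the scalings called 14.4% to 14.7% higher and 11.6% to 14.2% lower. Library weights gave 2 higher and 3 lower, where 28.1% of all genes were higher and 20.8% lower. Without SPIN1 replicate 1 there was 1 higher and 1 lower, and without SPIN1 replicate 3 there was 1 higher and 0 lower. The shares of all genes in those fits were 18.5% and 12.4% higher and 11.3% and 7.88% lower. Differences in this list ran from -0.52 to 1.52. The closest were GABPB2, a GABP subunit (1.36 against 0.666 FPKM, limma adjusted p = 0.0537), and PPRC1, a coactivator of nuclear respiratory factors (15 against 12.3 FPKM, limma adjusted p = 0.0904). Calls in these lists also moved with the processing. Median scaling and quantile normalization left 0 assembly factors higher and 5 lower (17.9%). Over all genes, 14.7% and 14.4% were then higher and 13.1% and 14.2% lower. There were 0 assembly factors higher without SPIN1 replicate 2 or NC replicate 3, against 11.4% and 11.5% of all genes. There was 1 without SPIN1 replicate 3 or NC replicate 2, against 12.4% and 10.2%. Of the transcription and RNA processing genes, 0 were called lower without SPIN1 replicate 2, NC replicate 2 or NC replicate 3. The shares of all genes lower in those fits were 6.65%, 5.8% and 6.14%. Of the synthetases, 0 were called higher without NC replicate 2, against 10.2% of all genes.

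Ribosomal proteins of the cytosol had a median difference below 0. Of 79 such genes, limma called 0 higher and 17 lower (21.5%, against 10.3% of all genes). The median was -0.19, and 8 differences were above 0. At an unadjusted p under 0.05, 0 were higher and 34 lower. The calls lower came to 29 without SPIN1 replicate 1 (36.7% of the list against 11.3% of genes), 4 without SPIN1 replicate 2 (5.06% against 6.65%) and 5 without SPIN1 replicate 3 (6.33% against 7.88%). They came to 7 without NC replicate 1 (8.86% against 7.91%), 4 without NC replicate 2 (5.06% against 5.8%) and 6 without NC replicate 3 (7.59% against 6.14%). The median stayed between -0.17 and -0.24 in these fits. RPL10 was at 291 ± 19.8 against 203 ± 9.06 FPKM, RPS27 at 715 ± 26.6 against 544 ± 9.73 and RPL15 at 119 ± 0.424 against 90.7 ± 1.85 (SD, n = 3 each; limma adjusted p of 0.00541 to 0.00814). Of the 13 proteins encoded by mitochondrial DNA, which the mitochondrial ribosome makes, 0 transcripts were called higher and 3 lower (23.1%, against 10.3% of all genes), with a median of -0.14. Unadjusted, 0 were higher and 4 lower, and under quantile normalization 3 were called in each direction. That normalization called 14.4% of all genes higher and 14.2% lower. In the first fit the 3 called lower were MT-CYB, MT-ND1 and MT-ND2, at 1.45-fold, 1.38-fold and 1.27-fold lower. These 13 genes took 34.3%, 38.4% and 35.2% of all FPKM in NC replicates 1 to 3 and 32.8%, 34.9% and 32.2% in SPIN1 replicates 1 to 3. Their level enters the scaling of every other gene, and when FPKM was scaled to the sum of nuclear genes the members' median fell from 0.23 to 0.18 and their calls from 20 to 14. The differences between the lists were not tested.

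**Figure D4:**
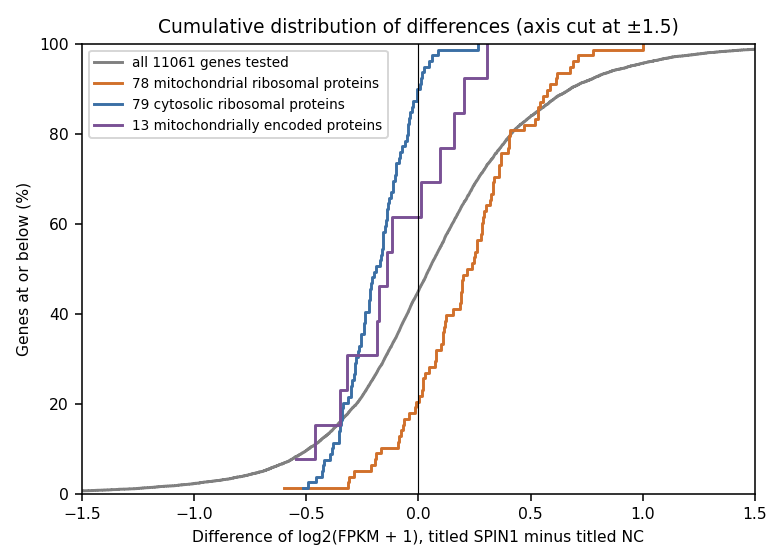
Cumulative share of genes (%) at or below each difference of log2(FPKM + 1), titled SPIN1 minus titled NC, for the 78 mitochondrial ribosomal proteins, 79 cytosolic ribosomal proteins, 13 mitochondrially encoded proteins and all 11061 genes tested; the axis ends at ±1.5. The curve of the mitochondrial ribosomal proteins crosses 50% at 0.23 and that of the cytosolic ones at -0.19, on either side of the curve of all genes at 0.05.

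The number of members called depended on how the libraries were scaled. Scaling to the sum of nuclear genes, to the median and by quantiles moved the median of all genes from 0.05 to 0.01, -0.01 and -0.02. The calls then came to 14, 13 and 13 members higher and 1 lower each, or 17.9%, 16.7% and 16.7% higher against 14.6%, 14.7% and 14.4% of genes. The 1 lower was 1.28% of members, against 11.6%, 13.1% and 14.2% of genes. Over all genes, the share of calls that were higher fell from 62.7% to 55.7%, 52.9% and 50.4%. Of the 20 members, 12 were called higher under all 3 scalings. The members' median less that of all genes, 0.18 as first fitted, stayed between 0.15 and 0.20 under every alternative. With a weight estimated for each library, 31 members were called higher and 5 lower, namely MRPS30, MRPS18B, MRPS31, MRPL4 and MRPL54, or 39.7% higher against 28.1% of genes. The 5 lower were 6.41% of members, against 20.8% of genes. Just inside the adjusted threshold of 0.05 lay MRPS25 at 0.0468 and MRPL1 at 0.0418, and just outside lay MRPL16 at 0.0527 (difference 0.29), MRPL41 at 0.0528 (0.41) and MRPS6 at 0.0610 (0.30).

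**Figure D5:**
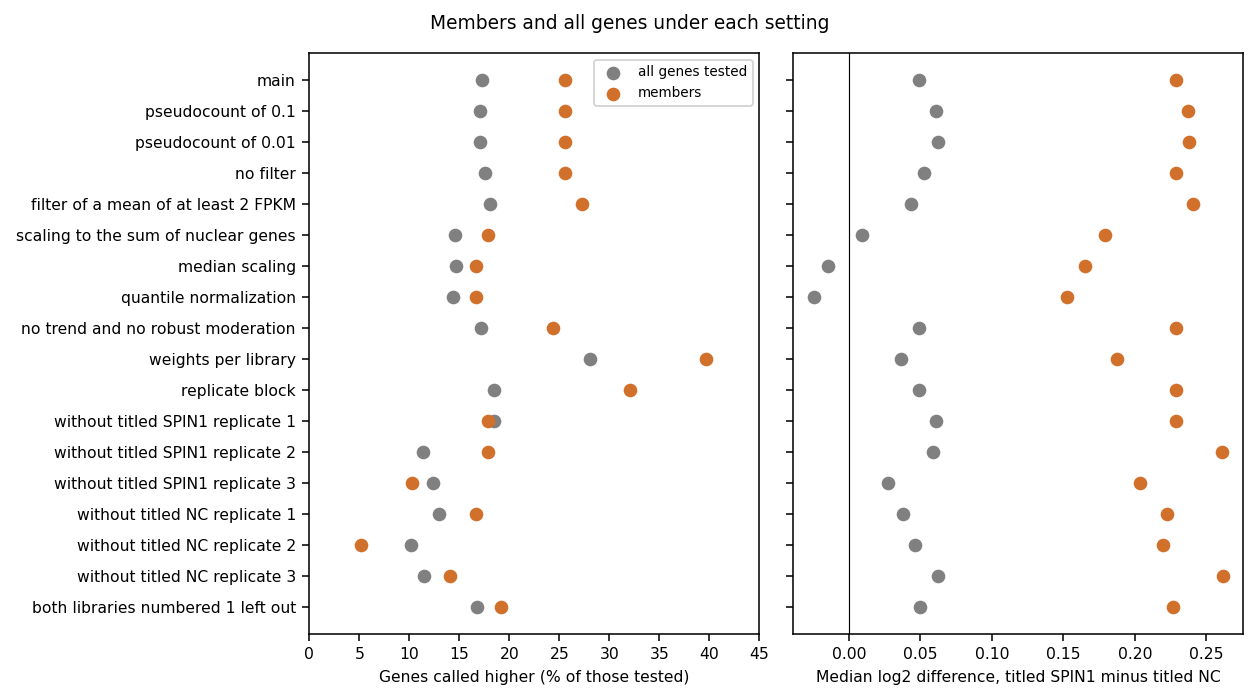
Left, the share of members (orange) and of all genes tested (grey) called higher (%) under the first fit and each alternative that kept the adjusted p as the threshold; right, the median log2 difference of both. The members' median lies right of that of all genes in every row, by 0.15 to 0.20, while their share of calls lies below that of all genes without SPIN1 replicate 1, SPIN1 replicate 3 or NC replicate 2. With a log2 difference of at least 1 also required, which is not plotted, the shares were 1.28% of members and 3.89% of all genes.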

How the data were processed

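Poly(A) RNA of 6 SNU-668 libraries was sequenced in a strand-specific, paired-end format, per the labels' protocols. Tools listed per the submitters' processing notes are FastQC, cutadapt, HISAT2 and StringTie, with the build hg19 and no versions or settings. The deposited unit is FPKM, per the file headers. Since FPKM is relative to a library's mapped fragments, very abundant genes lower the values of all others. No steps of whole reads were seen among low values (at most 4 of the 12 to 35 log2 ratios of a library pair lay within 0.02 of each other), so depth is unknown and precision rests on the 3 libraries per group.

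Values were taken as log2(FPKM + 1). Genes averaging at least 0.5 FPKM were tested two-sided with limma 3.58.1 (R 4.3.3, statmod 1.5.0), using its trend and robust options. Adjustment followed Benjamini and Hochberg over all 11061 genes, with a threshold of 0.05. The log scale understates changes of low genes, and folds are ratios of mean FPKM. The code was tested on simulated data first. Of changes of 0.5, 1 and 2 on the log2 scale it recovered 21.6%, 72.8% and 88.2%, and 9 of 139 calls were false. Far fewer genes were changed there than were called in the real data, so these shares do not measure power here. The members and lists were chosen with earlier results of these data known, so no test of a list was made. Named were SPIN1, ALKBH3, the 8 members with the largest changes called in each direction, the 4 highest and 4 lowest by level, the MRPS18 paralogs, 10 members with special roles, and from each list up to 4 called genes or the 2 closest. Other genes were chosen after their values were seen. A gene that this rule names is not reported here. Alternatives were pseudocounts of 0.1 and 0.01, no filter or one at 2 FPKM, 3 scalings, no trend or robust option, library weights, a replicate block, a log2 difference of at least 1, and leaving out each library or both numbered 1. Promoters came from RefSeq (GRCh38.p14) and pseudogene names from GENCODE, while gene coordinates are those of the deposited table. Figures were drawn with matplotlib 3.10.9.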

Additional observations from a re-analysis of the deposited data

How the results depend on the processing

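Depth is unknown, so these limits rest on 3 libraries a group. The 20 members called higher became 13 under median scaling and 13 under quantile normalization, 31 with library weights, 1 with a log2 difference of at least 1 (1.28%, against 3.89% of all genes), and 4 to 14 without single libraries. The count called lower, 0, became 1 under each of the 3 scalings (MRPS18B), 5 with weights, 0 to 1 without single libraries and 1 with both libraries numbered 1 left out (MRPS31 in both cases). In those fits 5.8% to 20.8% of all genes were called lower. The members' median of 0.23 was 0.17 (0.165) under median scaling and 0.15 (0.152) under quantile normalization. The calls over all genes, 3053, became 5410 with weights, 646 with a log2 difference of at least 1, and 1769 to 3296 without single libraries, lowest without NC replicate 2. The cause was not tested.

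Differences close to 0 changed sign. For scaling to nuclear genes, median scaling, quantile normalization and weights, in that order, MRPS36 gave -0.0200, -0.0423, -0.0441 and -0.0775, and MRPL44 -0.0324, -0.0464, -0.0737 and -0.0920. MRPL30 gave -0.0197, -0.0409 and -0.0560 under the 3 scalings, and MRPL42 gave -0.0159 under median scaling, -0.0442 under quantile normalization and -0.0281 with weights. With weights, MRPS33 was 0.00879, MRPL36 0.0473, MRPL45 -0.00420 and MRPL58 0.0402. With both libraries numbered 1 left out, MRPL44 was -0.0861, MRPL45 -0.00705, MRPL30 -0.197 and ALKBH3 0.0593. Without single libraries the ranges were -0.156 to 0.203 for MRPS36, -0.157 to 0.0482 for MRPS33, -0.0355 to 0.0989 for MRPL42, -0.223 to 0.0568 for MRPL36, -0.0639 to 0.0857 for MRPL44, -0.197 to 0.0132 for MRPL58, -0.184 to 0.168 for MRPS2, -0.00829 to 0.287 for MRPS12 and -0.354 to 0.694 for MRPL30. Of the other values of named members, 348 kept direction and side of the threshold, 27 lost and 8 gained a call.

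The titles give both groups replicates 1 to 3. Same-numbered libraries deviated together with correlations of 0.216, 0.0551 and 0.148. Between different numbers the correlations ran from -0.211 to 0.0757, the highest for NC replicate 2 with SPIN1 replicate 3. These values do not settle whether the numbers mark pairs, and the first fit did not pair them. With the replicate block, 25 members were called higher (32.1%, against 18.5% of all genes), 18 of them among the 20. The block called 0 members lower, against 11.3% of all genes. MRPS26 was then called higher (limma adjusted p = 0.0252).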
